A study of Mus musculus with 18 samples.

Results

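Prrx1, Prrx2, Shox2, Twist1, Osr1 and Osr2 are 6 transcription factor genes of limb bud mesenchyme, the loose tissue that becomes the skeleton and connective tissue of the limb. They were taken by symbol, whatever their values, from the 3 expression tables of the series, which list 13540, 14027 and 13478 genes. All 6 genes are listed in each table. Their identifiers and positions on GRCm38, from the GENCODE annotation, are ENSMUSG00000026586 on chromosome 1 (163245119 to 163313710, minus strand) for Prrx1, ENSMUSG00000039476 on chromosome 2 (30834972 to 30881251, plus strand) for Prrx2 and ENSMUSG00000027833 on chromosome 3 (66971727 to 66981771, minus strand) for Shox2. Those of Twist1 are ENSMUSG00000035799 on chromosome 12 (33957671 to 33959829, plus strand). Osr1 is ENSMUSG00000048387 on chromosome 12 (9570116 to 9581500, plus strand) and Osr2 is ENSMUSG00000022330 on chromosome 15 (35296098 to 35303305, plus strand).

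RNA was sequenced from mouse limb buds in 6 groups of 3 libraries each. Hindlimb buds of wild type CD1 embryos at e11.0 were set against forelimb buds of wild type CD1 embryos at e10.5, which the study matched by their shape. Hindlimb buds of Pitx1 null embryos on BALB/c were set against hindlimb buds of wild type BALB/c embryos, once at e11.0 and once at e11.5. Libraries of e10.5 and e11.0 buds were made by ribosomal depletion and kept strand, while those of e11.5 buds were enriched for mRNA, with replicate 3 of both genotypes unstranded. In CD1 the limb cannot be told apart from embryo age, and between the Pitx1 tables the stage cannot be told apart from the library type. Which part of Pitx1 the null allele removes, and whether embryos were pooled, is not given in the sources used here.

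Prrx1 and Prrx2 encode paired-type homeodomain proteins of limb and face mesenchyme, and mice that lack both have more severe limb skeletal defects than mice that lack one. Shox2 encodes a homeodomain protein needed for the proximal long bones, and Twist1 a basic helix-loop-helix (bHLH) protein of the early limb bud that pairs with E proteins such as Tcf12 or with Hand2. Osr1 and Osr2, the mouse odd-skipped genes for zinc finger proteins, are known from joint formation and, for Osr1, from fibroblasts around muscle. Pitx1 is itself a paired-type homeobox gene, expressed in hindlimb and not forelimb mesenchyme.

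The promoter windows, 250 bases before to 50 bases after the RefSeq start on GRCm38.p6, are shown for the Prrx pair, of which 1 member passed the test at each stage in the Pitx1 null buds, and for Shox2, which varied with Prrx1. Windows were held for 4 of the 6 genes (Prrx1, Prrx2, Shox2 and Twist1). Capitals mark a match to TAATTA, the palindrome bound by many homeodomain proteins. The windows lie at chr1:163313601-163313900 (minus strand), chr2:30845117-30845416 (plus strand) and chr3:66981722-66982021 (minus strand), and each reads 5′ to 3′ on its gene's strand.
Prrx1: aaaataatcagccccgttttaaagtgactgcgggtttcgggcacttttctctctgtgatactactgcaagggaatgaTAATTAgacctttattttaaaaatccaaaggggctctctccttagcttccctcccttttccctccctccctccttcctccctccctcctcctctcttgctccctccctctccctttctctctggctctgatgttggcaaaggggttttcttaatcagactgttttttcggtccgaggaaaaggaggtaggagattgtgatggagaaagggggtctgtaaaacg
Prrx2: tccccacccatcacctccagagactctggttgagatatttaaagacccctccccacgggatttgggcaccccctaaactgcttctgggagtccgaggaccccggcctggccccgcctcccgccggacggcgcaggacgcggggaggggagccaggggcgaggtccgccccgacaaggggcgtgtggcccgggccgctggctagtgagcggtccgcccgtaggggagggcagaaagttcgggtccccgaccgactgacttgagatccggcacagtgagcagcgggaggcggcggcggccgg
Shox2: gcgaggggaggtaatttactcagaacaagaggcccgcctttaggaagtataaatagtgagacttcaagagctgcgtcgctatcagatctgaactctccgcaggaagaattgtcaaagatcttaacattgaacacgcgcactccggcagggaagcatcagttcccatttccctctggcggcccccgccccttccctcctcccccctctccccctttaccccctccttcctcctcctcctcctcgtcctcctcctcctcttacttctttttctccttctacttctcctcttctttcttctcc
The match in Prrx1 begins 173 bases before the start. TAATTA is in 5.29% of all 32851 windows of the RefSeq table. Neither TAATCC, the core bound by bicoid-type homeodomains such as Pitx1, nor CATCTG, an E-box bound by bHLH pairs, occurs on either strand of the 4 windows, and Prrx2, Shox2 and Twist1 hold no TAATTA. Of all windows 7.06% hold TAATCC and 17.2% hold CATCTG. The TAATTA palindrome reads the same on both strands. The Prrx1 and Shox2 windows have 47.7% and 53.3% G and C, against 70.3% in Prrx2 and 66% in Twist1, with a median of 52.7% over all windows. The start of the Prrx2 window lies inside the longer gene model that GENCODE gives, and a match is a description of these letters, not a binding site.

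Depth was 17381522 to 53611914 reads on listed genes, and values are in CPM, read counts scaled to a library total of 1000000, so that 1 read was worth at most 0.0575 CPM. Pitx1, which checks the labels, averaged 209 CPM in CD1 hindlimbs against 0.352 CPM in forelimbs. It averaged 21.2 CPM in null against 124 CPM in wild type buds at e11.0, and 79.8 CPM in null against 338 CPM in wild type buds at e11.5. All 14 limb bud mesenchyme markers were listed in every group. Replicates 1 and 2 of each group share 1 sequencing run. Replicate 3 comes from another run at e11.0 and e11.5, and from a run that the labels do not name in CD1, where it was treated as another run, so the run was a term in each fit. Without that term 0 of the 6 genes passed in any comparison (limma).

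Per kilobase of exon, Twist1 had the highest and Osr2 the lowest level in all 6 groups. Twist1 averaged 111 ± 30 CPM per kb in CD1 hindlimbs against 130.5 ± 37 in CD1 forelimbs (SD, n = 3 each), which placed it among the top 2.8% and 2.28% of genes. Osr1 was the fifth throughout, at 6.42 ± 1.91 CPM per kb in CD1 hindlimbs and 7.15 ± 0.938 in forelimbs, and Osr2 had 1.998 ± 0.303 and 1.85 ± 0.213 in the same groups. Shox2, Prrx1 and Prrx2 lay between them with an order that was not fixed. Shox2 stood second in both CD1 groups, at 60.7 ± 0.387 CPM per kb in hindlimbs and 69.8 ± 3.91 in forelimbs, with no overlap with the next gene. At e11.0 it was the fourth in null buds (26.5 ± 5.62), where its range met those of both Prrx genes. In wild type buds of that stage it was the third (39.75 ± 11.1), and its range again met those of both Prrx genes. At e11.5 Shox2 was again the second, at 85.2 ± 34.1 in null and 98.7 ± 24.6 in wild type buds. It overlapped with both Prrx genes in null and with Prrx1 in wild type buds. Prrx1 and Prrx2 overlapped as neighbours in 4 groups, the CD1 groups and the null groups.

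**Figure D1:**
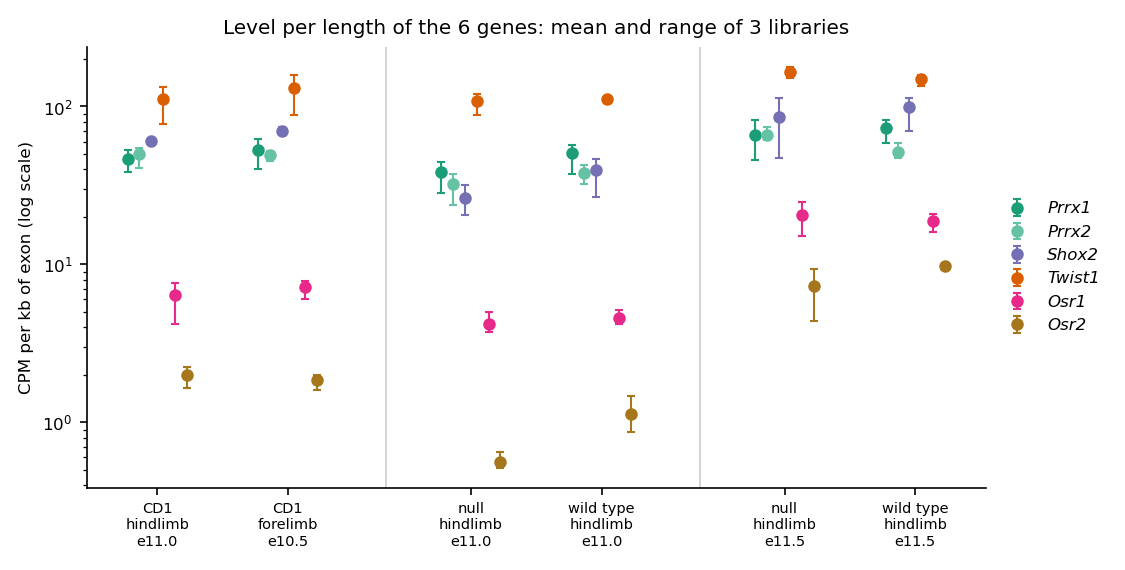
Mean CPM per kilobase of exon (log scale) of the 6 genes in the 6 groups, with bars from the lowest to the highest of 3 libraries. Twist1 is highest and Osr2 lowest in every group, while Prrx1, Prrx2 and Shox2 overlap in several.

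In e11.5 buds Osr1 averaged 20.7 ± 5.03 CPM per kb in null and 18.7 ± 2.41 in wild type, and Osr2 7.28 ± 2.56 in null and 9.79 ± 0.2997 in wild type. At e11.0 Osr1 averaged 4.21 ± 0.702 in null and 4.57 ± 0.490 in wild type, and Osr2 0.562 ± 0.0717 in null and 1.13 ± 0.315 in wild type. Wild type Osr2 thus stood in the top 81.9% of genes at e11.0 and in the top 39.5% at e11.5. These tables were normalized separately and their library types differ, so no test between stages was made.

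Of the Prrx pair, 1 member passed at each stage in the Pitx1 null hindlimb. Prrx1 fell by 24.4% at e11.0. Its paralog Prrx2 was also lower there (-0.24 log2, 95% confidence interval -0.42 to -0.06) but did not pass the test. Prrx1 and Prrx2 were not tested against each other. At e11.5 Prrx2 rose by 28.8% while Prrx1 did not pass. No 30-base stretch is shared between the transcripts of Prrx1 and Prrx2.

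Prrx1 had 460.3, 495 and 315 CPM in e11.0 null buds against 633.5, 630.3 and 416 CPM in wild type buds (replicates 1, 2 and 3). Replicate 3 was the lowest in both genotypes, the ranges overlap, and each null library was below the wild type library of its number, at 0.727, 0.785 and 0.756 times it. The log2 difference was -0.40 ± 0.06 (SE; limma, adjusted p = 0.00714, 95% confidence interval -0.55 to -0.26). At e11.0 13.1% of the 14027 genes passed, 8.41% lower and 4.73% higher, and of the 6 genes 3 passed lower (Prrx1, Shox2, Osr2) and 0 higher. The split over all genes, 664 higher and 1179 lower, became 1067 and 520 with trimmed-mean scaling and 1326 and 403 with median-ratio scaling, while the same 3 of the 6 genes passed lower. The Prrx1 call ended narrowly without wild type replicate 1 (limma, adjusted p = 0.0503), and Prrx1 kept it without each other library.

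Within Prrx1, on its strand and outside its exons, GENCODE has Gm26523, a lincRNA, and Gm37644, whose coding status is open, both listed in the CD1 and e11.0 tables. Gm26523 had 2.18, 2.47 and 2.13 CPM in e11.0 null buds against 3.14, 3.74 and 3.03 CPM in wild type buds, with no overlap (limma, log2 difference -0.40 ± 0.12, adjusted p = 0.0495). Gm37644 had 6.32, 6.75 and 9.94 CPM in null against 9.36, 9.72 and 12.4 CPM in wild type buds (limma, log2 difference -0.42 ± 0.10, adjusted p = 0.0272). The Prrx1 value in the same libraries was -0.40 log2.

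At e11.5 Prrx1 had 907, 767 and 509.5 CPM in null buds against 909, 855 and 654 CPM in wild type buds. The ranges overlap, with null replicate 3 below every wild type library, and each null library was below the wild type library of its number, at 0.998, 0.897 and 0.779 times it. The difference of -0.17 ± 0.08 log2 did not pass (limma, adjusted p = 0.179) and its 95% confidence interval ran from -0.35 to 0.01. Without null replicate 1 it passed (limma, adjusted p = 0.0146).

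Prrx2 had 121, 123.5 and 146 CPM in e11.5 null buds against 96.1, 91.9 and 114 CPM in wild type buds. Every null library exceeded every wild type library, as for 5.48% of genes in that direction, and replicate 3 was the highest in both genotypes. Prrx2 rose by 0.37 ± 0.04 log2 (limma, adjusted p = 0.00208), the only one of the 6 to pass at e11.5, where 10.8% of 13478 genes passed, 2.83% higher and 7.96% lower. With trimmed-mean scaling the split over all genes, 382 higher and 1073 lower, became 651 and 927, and with median-ratio scaling 743 and 919. Prrx2 passed without each library in turn (adjusted p at most 0.0226, limma).

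In e11.0 buds Prrx2 had 71.8, 72.9 and 46.6 CPM in null against 83.7, 76.0 and 63.4 CPM in wild type. Each null library was lower than its wild type number, with overlap between the groups, and the -0.24 ± 0.08 log2 did not pass (limma, adjusted p = 0.0718). It passed lower with the replicate number as a block (limma, adjusted p = 0.0434) and without wild type replicate 2 (limma, adjusted p = 0.0055).

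**Figure D2:**
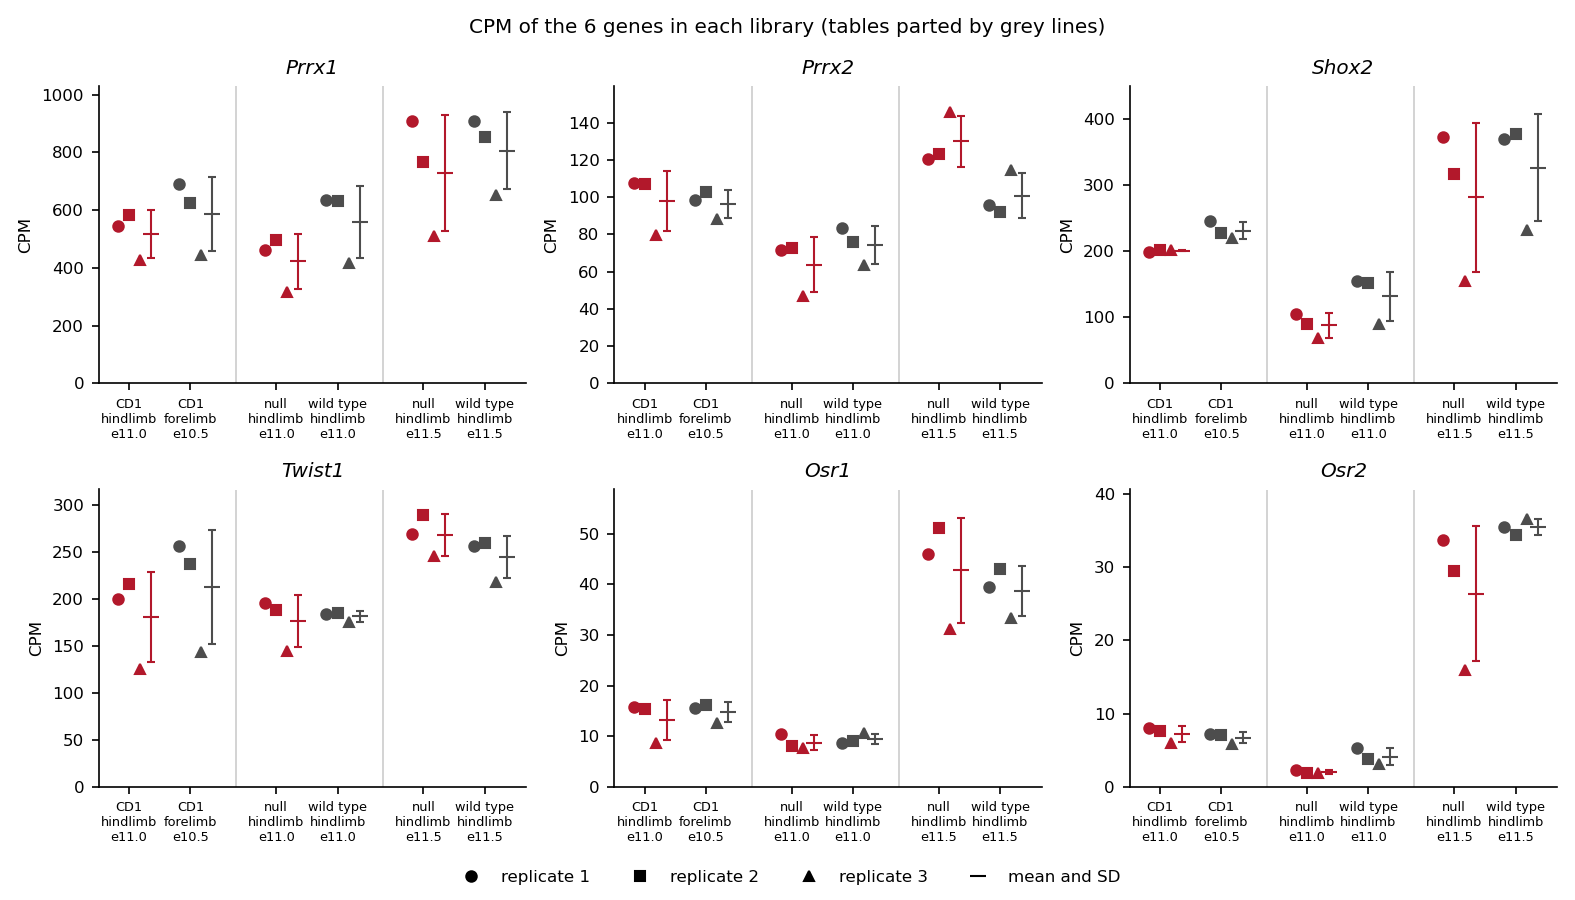
CPM of each gene in each of the 18 libraries, with the mean and SD of each group to the right of its points; grey lines part the separately normalized tables. Prrx2 lies higher in e11.5 null than in e11.5 wild type buds in every library, and Osr2 lies lower in null than in wild type buds in every library at both stages.

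Tested directly, the null effect on Prrx2 differed between the stages. The effect at e11.5 exceeded that at e11.0 by 0.60 ± 0.10 log2 (limma, adjusted p = 0.0173, 95% confidence interval 0.40 to 0.81). In this test 0.363% of 12935 genes passed, 0.170% higher and 0.193% lower, and Prrx2 ranked 18 by p. The null effect on the other 5 genes was also shifted upward at e11.5, by 0.19 to 0.29 log2, but none passed (limma, adjusted p of 0.246 for Prrx1, 0.258 for Shox2, 0.284 for Twist1, 0.397 for Osr1 and 0.563 for Osr2). In this difference the median was 0.05 log2 over all genes and 0.485 log2 over the mesenchyme markers. Prrx1, Shox2 and Osr2 still had negative values in null buds at e11.5. The Prrx2 call ended in 6 of 12 fits that left out 1 library: e11.0 null replicate 2, e11.0 wild type replicate 1, and e11.5 null and wild type replicates 2 and 3 (limma, adjusted p of 0.0543 to 0.0787). The Prrx2 call ended also with replicates 1 and 2 alone (0.51 log2, limma, adjusted p = 0.148). Leaving out either replicate 3 of a stage gives the same estimate, as the run term then takes up the other. The fits without e11.5 null or wild type replicate 3 are thus not separate checks.

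In CD1 buds neither Prrx gene passed between limbs. Prrx1 had 544, 584 and 426 CPM in hindlimbs against 689, 626 and 443 CPM in forelimbs, and Prrx2 had 108, 107 and 79.5 CPM in hindlimbs against 98.4, 103 and 88.2 CPM in forelimbs. The ranges overlap for both. Prrx1 differed by -0.17 ± 0.06 log2 (limma, adjusted p = 0.138) and Prrx2 by 0.01 ± 0.06 log2 (limma, adjusted p = 0.923, 95% confidence interval -0.12 to 0.14).

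Within a library, Prrx1 had more CPM than Prrx2 everywhere, by 3.49 to 9.46 times. The ratio was 7.51, 6.21 and 3.49 in e11.5 null buds against 9.46, 9.31 and 5.71 in wild type buds. It was 6.41, 6.79 and 6.75 in e11.0 null against 7.57, 8.29 and 6.56 in wild type buds. Null and wild type ranges overlap at both stages. Within pairs of the same number and run, the ratio was lower in null buds in 3 of 3 pairs at e11.5 and in 2 of 3 at e11.0.

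Shox2 was lower in the Pitx1 null hindlimb at e11.0, by 32.2%, and lower in CD1 hindlimbs than in forelimbs by 12.9%. At e11.0 it had 105, 89.5 and 68.2 CPM in null buds against 154, 151 and 89.1 CPM in wild type buds. The highest null library lies above wild type replicate 3, and each null library was below the wild type library of its number, at 0.682, 0.591 and 0.766 times it. Shox2 fell by 0.56 ± 0.08 on the log2 scale (limma, adjusted p = 0.00513, 95% confidence interval -0.75 to -0.37), and the call ended without wild type replicate 1 (limma, adjusted p = 0.0562).

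At e11.5 Shox2 had 373, 318 and 156 CPM in null buds against 370.2, 377 and 233 CPM in wild type buds. Replicate 1 shows no loss and replicate 3 the largest, and the -0.27 ± 0.09 log2 did not pass (limma, adjusted p = 0.0947). Without null replicate 1 it passed lower (limma, adjusted p = 0.0130), and in the authors' deposited table the adjusted p is 0.0350. That table has 2 of the 6 genes at an adjusted p of at most 0.05 at e11.5 (Prrx2, Shox2), with 19.6% of its genes.

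In CD1 buds Shox2 had 199.5, 202 and 202 CPM in hindlimbs against 245, 228 and 219.9 CPM in forelimbs. All hindlimb libraries lie below all forelimb libraries, as for 5.32% of genes, while 0 of the 6 lay above, against 5.87% of genes. The difference was -0.20 ± 0.05 log2 (limma, adjusted p = 0.0419). Of 13540 genes in CD1 5.87% passed, 3.46% lower and 2.41% higher, against 2 lower (Shox2, Twist1) and 0 higher of the 6. The call did not hold with the replicate number as a block (limma, adjusted p = 0.0870), and of the fits without 1 library it held only without forelimb replicate 1. Shox2 shares 153 exon bases (4.62% of its length) with Rsrc1 on the opposite strand. Rsrc1 averaged 68.8 CPM in null against 81.4 CPM in wild type buds at e11.0 (limma, log2 difference -0.24 ± 0.07, adjusted p = 0.0477), and its part in the Shox2 value was not tested.

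Twist1 passed between CD1 limbs and in neither Pitx1 comparison. It had 199.9, 216 and 125.5 CPM in hindlimbs against 256, 237 and 144 CPM in forelimbs. Replicate 3 is far below the others in both limbs, so the ranges overlap, but each hindlimb library was below the forelimb library of its number. The difference of -0.23 ± 0.05 log2 passed (limma, adjusted p = 0.0262). It did not pass with the replicate number as a block (limma, adjusted p = 0.0622), and among the fits without 1 library it held only without forelimb replicate 1 or forelimb replicate 2.

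Twist1 in e11.0 buds had 196, 188 and 144 CPM in null against 184, 185 and 175 CPM in wild type. The wild type range lies inside the null range, and the value of -0.05 ± 0.08 log2 (limma, adjusted p = 0.649) changes sign with trimmed-mean, median-ratio or mesenchyme marker scaling. At e11.5 Twist1 had 269, 289 and 245 CPM in null against 256, 259 and 218 CPM in wild type buds, higher in 3 of 3 numbered pairs. The 0.13 ± 0.05 log2 did not pass (limma, adjusted p = 0.0943), except without null replicate 1 (limma, adjusted p = 0.0242).

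Of the Osr pair, Osr2 passed in the Pitx1 null hindlimb and Osr1 did not. Osr2 fell by 39.5% at e11.0 on the CPM + 1 scale of the fit, with mean CPM at 0.498 times that of wild type buds, while neither gene passed at e11.5. Osr2 had 2.34, 1.87 and 1.90 CPM in e11.0 null buds against 5.35, 3.797 and 3.13 CPM in wild type buds. The groups do not overlap, as for 13.7% of genes in that direction and 4.78% in the other. The difference was -0.72 ± 0.14 log2 (limma, adjusted p = 0.0160).

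These Osr2 values rest on 38 to 84 reads a library in null and 66 to 134 in wild type buds. The call ended without null replicate 2 or 3, or without wild type replicate 1 or 3 (limma, adjusted p of 0.0568 to 0.101), and with replicates 1 and 2 alone (limma, adjusted p = 0.0542), with the value at -0.83 to -0.58 in all 6 fits without 1 library. Without either replicate 3 the estimate is that of replicates 1 and 2 alone, so these fits are not separate checks.

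Osr2 at e11.5 had 33.8, 29.4 and 16.0 CPM in null buds against 35.5, 34.4 and 36.5 CPM in wild type buds. All null libraries lie below all wild type libraries, as for 1481 of 13478 genes there. Null replicate 3 stood at 0.438 times its wild type number, and replicates 1 and 2 at 0.950 and 0.856 times. The -0.48 ± 0.17 log2 did not pass (limma, adjusted p = 0.101), and passed without null replicate 1 (limma, adjusted p = 0.0393). In the authors' deposited table its adjusted p is 0.000194 at e11.0, where 20.6% of genes and 3 of the 6 are at 0.05 or less, and 0.0763 at e11.5.

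Osr1 had 10.4, 7.99 and 7.72 CPM in e11.0 null buds against 8.69, 9.03 and 10.6 CPM in wild type buds, with overlap and no common direction (limma, log2 difference -0.11 ± 0.13, adjusted p = 0.545). At e11.5 it had 46.1, 51.1 and 31.1 CPM in null against 39.5, 43.1 and 33.3 CPM in wild type buds, again overlapping (limma, log2 difference 0.12 ± 0.08, adjusted p = 0.348). The 95% confidence intervals run from -0.40 to 0.17 and from -0.06 to 0.30.

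In CD1 buds neither Osr gene passed. Osr1 had 15.8, 15.3 and 8.71 CPM in hindlimbs against 15.6, 16.1 and 12.5 CPM in forelimbs (limma, log2 difference -0.18 ± 0.10, adjusted p = 0.309). Osr2 had 8.08, 7.65 and 5.999 CPM in hindlimbs against 7.20, 7.10 and 5.82 CPM in forelimbs (limma, log2 difference 0.09 ± 0.08, adjusted p = 0.537). Hindlimb and forelimb ranges overlap for both.

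**Figure D3:**
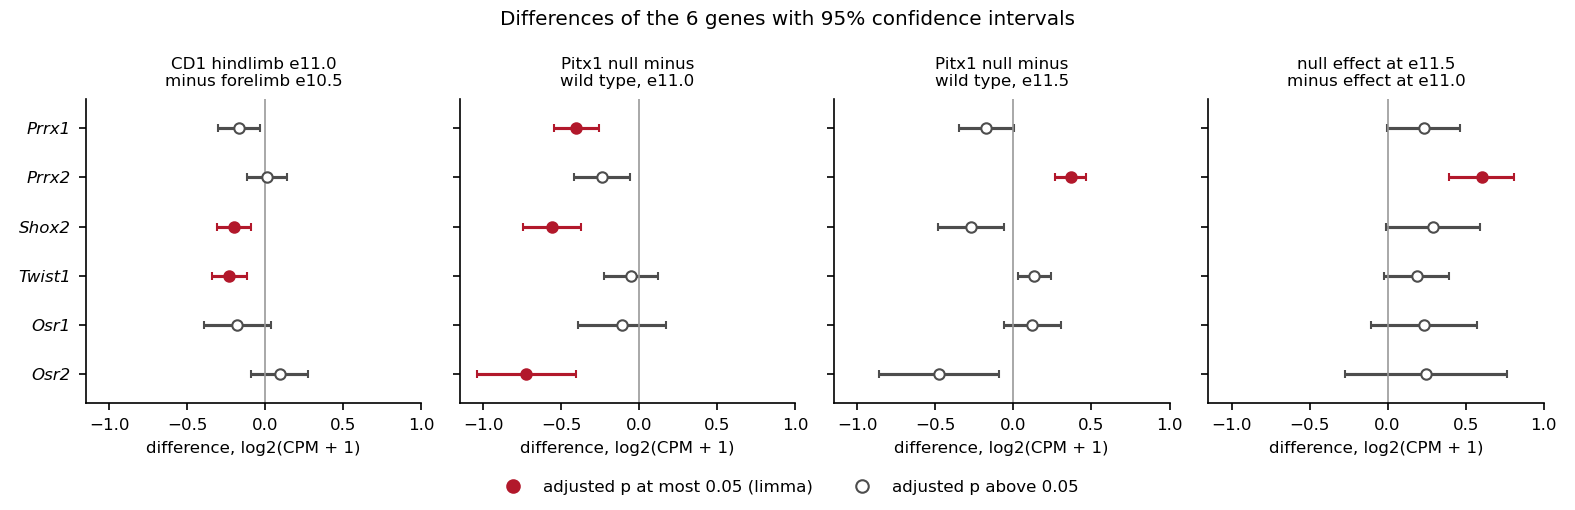
Differences of the 6 genes in log2(CPM + 1), with 95% confidence intervals, for hindlimb minus forelimb, for null minus wild type at e11.0 and at e11.5, and for the difference between the stages; filled points have an adjusted p of at most 0.05 (limma). At e11.0 all 6 points lie below 0, with Prrx1, Shox2 and Osr2 filled, and at e11.5 only Prrx2 is filled, above 0. Some unfilled points also have intervals that exclude 0: Prrx1 between limbs, Prrx2 at e11.0, and Shox2, Osr2 and Twist1 at e11.5. The intervals are not adjusted for the number of genes.

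The ratio of Osr1 to Osr2 within a library, which needs no scaling between libraries, did not overlap between groups in any of the 3 comparisons. It was 4.43, 4.26 and 4.06 in e11.0 null buds against 1.63, 2.38 and 3.39 in wild type buds. At e11.5 it was 1.36, 1.74 and 1.95 in null against 1.11, 1.25 and 0.911 in wild type buds. In CD1 it ran the other way, at 1.95, 2 and 1.45 in hindlimbs against 2.17, 2.27 and 2.16 in forelimbs. An exact permutation test of 3 against 3 libraries cannot give a two-sided p below 0.1, so none is given. The other ratios computed (Prrx1 to Prrx2, Shox2 to Twist1, Prrx2 or Prrx1, and Twist1 to Prrx1) overlapped in all 3 comparisons. Osr2 alone also did not overlap at e11.0 and e11.5. The share of other gene pairs that separate in this way is not given here.

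**Figure D4:**
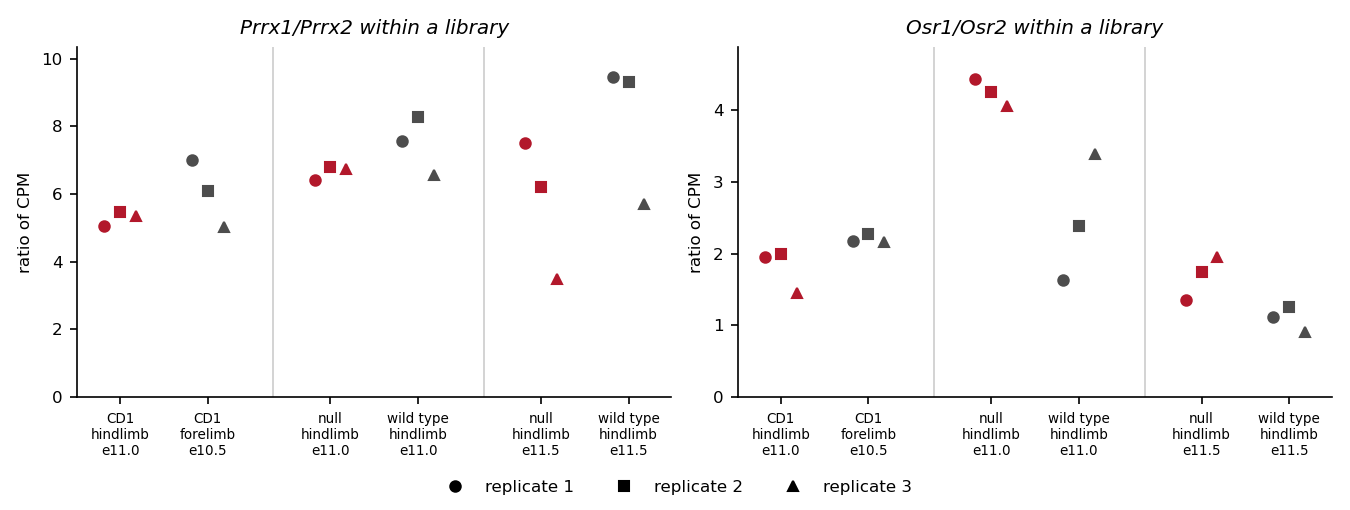
Ratio of Prrx1 to Prrx2 (left) and of Osr1 to Osr2 (right), as CPM over CPM within each library, for the 6 groups. The Osr1 to Osr2 ratio of every null library lies above every wild type library of its stage, while the Prrx1 to Prrx2 ranges overlap at both stages.

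Over the 18 libraries, Prrx1, Shox2 and Osr2 varied together, and the paralog pairs less so. After each library was centred on its table and run class, Prrx1 and Shox2 correlated at r = 0.918, Shox2 and Osr2 at r = 0.880 and Prrx1 and Osr2 at r = 0.774. Twist1 and Osr1 correlated at r = 0.609, Prrx2 and Osr1 at r = 0.523 and Prrx2 and Twist1 at r = 0.464. Between the paralogs r was 0.081 for Prrx1 and Prrx2 and 0.127 for Osr1 and Osr2. These values describe 18 libraries that share genotype, table and scaling, and genotype differences feed into them. Prrx1, Shox2 and Osr2 are also the 3 that passed lower in e11.0 null buds. High r was shared with many genes: by rank correlation, Atp13a2 had r = 0.901 with Osr2 and ranked 107 of 8826. Centred on the table alone, r was 0.879 for Prrx1 and Shox2, 0.783 for Shox2 and Osr2 and 0.738 for Prrx1 and Osr2. The other 3 genes were not set apart in that way. Prrx2 and Osr1 had r = 0.244, below the 0.339 of Prrx1 and Prrx2, and Osr1 had r = 0.57 with Prrx1, 0.446 with Shox2 and 0.395 with Osr2. Twist1 had r = 0.676 with Prrx1 and 0.787 with Osr1.

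**Figure D5:**
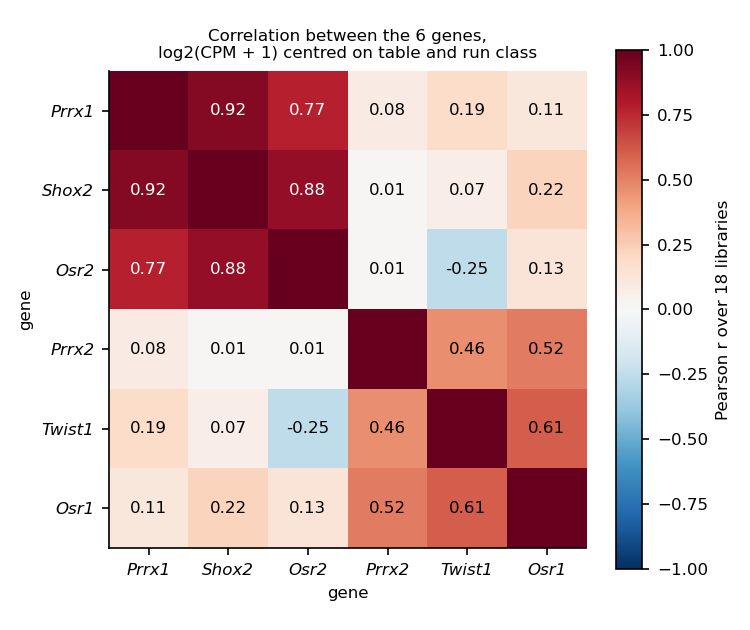
Pearson r between the 6 genes over 18 libraries, from log2(CPM + 1) centred on table and run class, coloured from blue (negative) to red (positive). Prrx1, Shox2 and Osr2 correlate at 0.77 to 0.92 with each other and at -0.25 to 0.22 with Prrx2, Twist1 and Osr1.

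By the same measure, among 8825 other genes of at least 10 CPM in each table (8826 for the Osr genes), the most alike to Prrx1 were Tfdp2 (r = 0.963), Trps1 (r = 0.955) and Spag9 (r = 0.954). Those of Shox2 were Dcx (r = 0.979), Trps1 (r = 0.949) and Capn2 (r = 0.949), and Osr2 was likewise close to Atp13a2 (r = 0.950) and Daam1 (r = 0.947). Trps1, a zinc finger gene of limb cartilage, thus stood beside both Prrx1 and Shox2. Prrx2 was most like Melk (r = 0.929), Gfm2 (r = 0.921) and Kif20a (r = 0.916), Melk and Kif20a being genes of dividing cells. Twist1 was most like Fam98b (r = 0.905), Abhd17c (r = 0.882) and Lef1 (r = 0.869), and Osr1 like Ednra (r = 0.812), Sh3rf1 (r = 0.762) and Pigu (r = 0.755). Under rank correlation 10 of the 18 matches stayed in the top 3, and under centring on the table alone 1 of 18, Ednra with Osr1. Centred on the table alone, r was 0.471 for Melk and 0.26 for Gfm2 with Prrx2, 0.343 for Capn2 and 0.93 for Trps1 with Shox2, and 0.132 for Atp13a2 with Osr2.

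Markers of cell types moved with the e11.0 comparison, in which 8.41% of all genes passed lower and 4.73% higher. Of the 14 limb bud mesenchyme markers 7 passed lower and 0 higher (Lhx9, Lmx1b, Gli3, Hand2, Pdgfra, Msx1 and Vim), and their summed level was 1011 to 1164 CPM in null against 1357 to 1511 CPM in wild type buds. Of 12 surface ectoderm markers 5 passed higher (Krt5, Krt18, Cdh1, Cldn6 and Epcam), with sums of 468 to 1069 CPM in null and 358 to 894 CPM in wild type buds, replicate 3 being the highest in both. Of 10 endothelial markers 7 passed lower, and of 5 listed muscle precursor markers 4. Fewer cells of a type and less RNA per cell cannot be told apart in RNA from limb buds, and the part of these markers in the fall of Prrx1, Shox2 and Osr2 was not tested. These counts change with the libraries used. In fits without 1 library 2 to 8 mesenchyme markers passed lower, and 0 to 11 ectoderm markers passed higher, with 0 without null replicate 2, null replicate 3, wild type replicate 1 or wild type replicate 3 and 11 without wild type replicate 2. Endothelial markers passing lower numbered 0 to 8, with 0 without null replicate 3, wild type replicate 1 or wild type replicate 3 and 1 without null replicate 2. Muscle precursor markers passing lower numbered 1 to 5, with 1 without either replicate 3 and 2 without wild type replicate 1. For all these markers the fits without null replicate 3 and without wild type replicate 3 give the same estimates, and are not separate checks. Replicate 3 also had the highest erythroid marker sum at e11.0, 17712 CPM in null and 11208 CPM in wild type buds, against 6124 to 6232 CPM in null and 4843 to 7375 CPM in wild type buds of the other replicates. At e11.5 the mesenchyme sum was 2500 to 2586 CPM in null against 2465 to 2715 CPM in wild type buds. There 8 of 8 muscle precursor markers passed lower, against 7.96% of all genes (5 to 8 in fits without 1 library, with 5 without null replicate 2 or wild type replicate 1). Sums of these muscle markers were 117 to 147 CPM in null against 191.5 to 226 CPM in wild type buds. The part of the mesenchyme and muscle markers in the Prrx2 value was not tested.

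The libraries were also rescaled so that the geometric mean of the 14 mesenchyme markers was equal, which shifted the median of all genes to 0.18 log2 at e11.0 and -0.14 log2 at e11.5. After rescaling, 2562 of 14027 genes passed at e11.0, 4717 of 13478 at e11.5 and 4283 of 12935 in the stage difference (limma). On this scale Osr2 was lower in e11.0 null buds (-0.52 ± 0.17 log2; limma, adjusted p = 0.0211), and Prrx1 (-0.12 ± 0.15 log2) and Shox2 (-0.28 ± 0.14 log2) did not pass (limma, adjusted p = 0.629 and 0.140). Before rescaling, 6 of the markers passed higher at e11.5 (Fgf10, Lhx2, Msx2, Msx1, Alx4 and Tbx2) and Vim lower, against 2.83% and 7.96% of all genes. The rescaled Prrx2 was higher by 0.24 ± 0.05 log2 at e11.5 (limma, adjusted p = 0.00646). Prrx1 (-0.30 ± 0.07 log2), Shox2 (-0.40 ± 0.08 log2) and Osr2 (-0.60 ± 0.15 log2) then passed lower at e11.5 (limma, adjusted p of 0.00882, 0.00482 and 0.0113). The rescaled stage difference of Prrx2 was 0.20 ± 0.13 log2 and did not pass (limma, adjusted p = 0.193).

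In CD1 buds 7 of the 14 mesenchyme markers passed lower (Msx2, Tbx3, Gli3, Fgf10, Lhx9, Pdgfra and Lmx1b) and Hand2 higher, with sums of 1594 to 2158 CPM in hindlimbs and 1720 to 2450 CPM in forelimbs. Of all genes 3.46% passed lower and 2.41% higher. Rescaling to these markers shifted the median of all genes to 0.15 log2, and 4829 of 13540 genes then passed (limma). Shox2 then differed by -0.05 ± 0.06 log2 and Twist1 by -0.08 ± 0.06 log2, and neither passed (limma, adjusted p = 0.543 and 0.318). Prrx2 passed higher at 0.16 ± 0.05 log2 (limma, adjusted p = 0.0454), a value close to that median.

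Genes that work beside the 6 were read from lists. Of the Twist1 partners and other bHLH genes, at e11.0 1 of 10 listed passed, where 13.1% of all genes passed. That gene was Hand2, the Twist1 partner of the posterior bud, at 57.6 CPM in null against 80.5 CPM in wild type buds (limma, log2 difference -0.49, adjusted p = 0.00729). At e11.5 Id1 passed higher (0.47 log2, adjusted p = 0.00569) and Hand1 and Msc lower (-1.17 and -1.16 log2, limma), of 12 listed, where 10.8% of all genes passed. The list's median difference was -0.07 log2 at e11.0 and -0.0045 at e11.5, against -0.07 and -0.02 log2 over all genes. In CD1 Hand2 passed higher in hindlimbs (0.43 log2), and Msc (-0.63 log2), Id2 (-0.29 log2) and Tcf12 (-0.29 log2) passed lower, of 11 listed (limma). Of all genes 5.87% passed in CD1.

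Paired-class and related homeobox genes moved in both directions. Median differences of this list were 0.03 log2 at e11.0 and 0.185 log2 at e11.5, against -0.07 and -0.02 log2 over all genes. Of all genes 4.73% passed higher and 8.41% lower at e11.0, 2.83% and 7.96% at e11.5, and 2.41% and 3.46% in CD1. At e11.0 4 of 11 passed higher, Alx1 (0.57 log2) and Barx2 (0.52 log2) among them, and Pax3 (-1.13 log2) and Msx1 (-0.40 log2) passed lower (limma). At e11.5 5 of 12 passed higher, among them Alx1 (0.57 log2) and Msx2 (0.48 log2), and Pax9 (-1.44 log2) and Pax3 (-0.34 log2) passed lower (limma). Alx4 and Msx1 also passed higher at e11.5, as Prrx2 did. In CD1 5 of 10 passed lower in hindlimbs, Pax1 (-1.39 log2) and Alx1 (-1.14 log2) among them, and Barx2 passed higher (0.57 log2, limma).

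Joint and cartilage formation is the setting in which the Osr genes are known. At e11.0 5 of 10 listed passed lower and 0 higher, where 8.41% of all genes passed lower and 4.73% higher, with Sox9 at 13.2 CPM in null against 25.9 CPM in wild type buds (-0.92 log2), then Runx2 (-0.72 log2) and Gdf5 (-0.60 log2, limma). At e11.5 6 of 12 passed lower, against 7.96% of all genes, led by Sox6 (-1.26 log2), Col2a1 (-1.12 log2) and Runx2 (-1.10 log2), and Gdf6 passed higher (0.35 log2, limma). The list's median was -0.33 log2 at e11.0 and -0.37 log2 at e11.5, against -0.07 and -0.02 log2 over all genes. In CD1 4 of 9 passed lower in hindlimbs, against 3.46% of all genes, led by Runx2 (-1.76 log2), Sox6 (-0.47 log2) and Erg (-0.36 log2, limma).

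Muscle connective tissue genes, the setting known for Osr1, passed lower in 6 and higher in 1 of 15 at e11.0 and lower in 8 and higher in 0 of 15 at e11.5. Tbx4, the hindlimb T-box gene, had 28.3 CPM in null against 66.05 CPM in wild type buds at e11.0 (-1.19 log2) and 80.5 CPM in null against 189 CPM in wild type buds at e11.5 (-1.23 log2, limma). Tcf7l2, a marker of muscle connective tissue fibroblasts, passed lower at both (-0.69 and -0.77 log2), Col1a2 at e11.0 (-0.60 log2) and Dcn at e11.5 (-0.69 log2, limma). Hic1 passed higher at e11.0 (0.95 log2, limma). In CD1 6 of 15 passed lower in hindlimbs, against 3.46% of all genes, led by Tbx5 (-6.47 log2), Col6a3 (-0.95 log2) and Zfhx4 (-0.48 log2, limma). Tbx4 (4.23 log2) and Zfhx3 (0.28 log2) passed higher, against 2.41% of all genes (limma).

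Proximal-distal genes are those of the Hox, Meis and Pbx families. Median differences of this list were -0.02 log2 at e11.0 and 0.12 log2 at e11.5, against -0.07 and -0.02 log2 over all genes. At e11.0 1 of 13 passed, Hoxa13, lower at -0.90 log2, where 8.41% of all genes passed lower and 4.73% higher (limma). At e11.5 Hoxa11 (0.46 log2), Hoxd11 (0.41 log2) and Hoxd10 (0.34 log2) passed higher, against 2.83% of all genes (limma). In CD1 3 of 13 passed higher in hindlimbs, Hoxa13 (1.93 log2), Hoxa11 (0.34 log2) and Hoxa10 (0.28 log2), and 5 lower, led by Hoxd9 (-1.09 log2), Hoxd10 (-0.64 log2) and Hoxa9 (-0.30 log2, limma). Of all genes 2.41% passed higher and 3.46% lower in CD1. No Meis gene, marking the proximal bud where Shox2 acts, passed in a Pitx1 comparison. Without 1 library, 2 to 5 homeobox, 2 to 5 joint and 3 to 12 connective tissue genes passed at e11.0, and 3 to 7, 5 to 7 and 3 to 11 at e11.5.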

How the data were processed

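Limb buds of mouse embryos were profiled by RNA sequencing, 18 libraries in 6 groups of 3. Reads were aligned with STAR, counted with featureCounts and tested with edgeR on GRCm38 (mm10), per the submitters' processing notes. Their versions and the strand setting are not given in the sources used here. The authors deposited CPM per library, in 3 separately normalized tables of genes above 0.5 CPM in at least 3 libraries. Their log2 fold changes, likelihood-ratio score, p-values and adjusted p-values stand in the same deposited tables, per the file headers, and those printed are named as theirs. CPM gave whole reads within 0.01 read in each library, which was used for depth alone. Precision from depth covers counting error only.

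The tables were analysed one by one on log2(CPM + 1) with limma-trend (limma 3.58.1, R 4.3.3), with terms for group and run, two-sided, Benjamini-Hochberg adjusted over all listed genes at 0.05. A fold change on that scale understates low genes. The stage difference was fitted over the 12935 genes in both Pitx1 tables. Because the tables hold CPM, no count test was run. The fitting code was run on simulated counts with a fixed spread and the run effect as modelled, which cannot test the calls made here. Levels per length used merged GENCODE M21 exons, and IDs matched for 13513, 13998 and 13457 genes. RefSeq gave the promoter windows.

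The 6 genes and the gene lists were chosen with earlier results of these data known. All 6 genes are named in each comparison. From each of 5 lists up to 3 passing genes of largest change per direction are named, and all where 3 or fewer passed; for each of the 6 genes, the 3 of highest Pearson r are named. A few genes that this rule takes are not reported here. Mesenchyme and ectoderm markers are named where they passed. Gm26523, Gm37644 and Rsrc1 are named because they overlap Prrx1 or Shox2. Same-numbered libraries deviated together in every table (r of 0.64 to 0.94 across genes), which also reflects their shared run. For replicates 1 and 2 in CD1, r was 0.69 and 0.8 for the same number and 0.85 and 0.75 across numbers. The CD1 numbers thus show no pairing beyond the run. At e11.0 r was 0.66 and 0.64 against 0.41 and 0.53 across numbers, and at e11.5 0.73 and 0.83 against 0.63 and 0.63. Fits with the number as a block are given where a call changes. The labels do not say that replicates are separate litters, so p-values measure the spread between these libraries, which may be technical. Alternatives were other pseudocounts (0.1 and 5), a mean of at least 1 CPM, trimmed-mean and median-ratio scaling, removal of globin and mitochondrial genes, no run term, replicates 1 and 2 (the shared run) alone, the replicate block, leaving out each library, and the authors' adjusted p. Scaling to the mesenchyme markers was added after seeing the data.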

Additional observations from a re-analysis of the deposited data

Results flagged for a closer look

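In a direct test of the difference between the stages, the effect of Pitx1 loss passed for Prrx2 and for 7 genes of the lists and mesenchyme markers (limma, Benjamini-Hochberg adjusted). Of all 12935 genes 0.363% passed. Prrx2 differed by 0.60 log2, with 0.37 log2 at e11.5 and -0.24 log2 at e11.0 (adjusted p = 0.0173). Lmx1b differed by 0.91 log2 (adjusted p = 0.0234), Lhx2 by 0.89 log2 (adjusted p = 0.0419), Lhx9 by 0.84 log2 (adjusted p = 0.00460) and Msx1 by 0.71 log2 (adjusted p = 0.0419). In the other direction were Sox6 at -1.01 log2 (adjusted p = 0.0142), Col2a1 at -0.99 log2 (adjusted p = 0.000316) and Barx2 at -0.67 log2 (adjusted p = 0.0491). These calls change with the libraries used. In 12 fits without 1 library, 10 to 2567 genes passed in all, and Prrx2 passed in 6 of the 12. Mesenchyme markers passing numbered 1 to 9, homeobox genes 0 to 7 and joint genes 1 to 3. Which of the other 7 genes kept their calls is not given here. Stage cannot be told apart from library type here, since the e11.5 libraries were enriched for mRNA. Rescaled to the mesenchyme markers, the median gene shifted by -0.33 log2 in this difference, and Prrx2 stood at 0.20 log2.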

How the results depend on the processing

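The 24 differences of the 6 genes were refitted under 438 alternatives, of which 366 kept their direction and their side of the threshold. These alternatives are not all separate checks. Within a table, leaving out either replicate 3 gives the estimate of replicates 1 and 2 alone, as the run term takes up the other replicate 3. Calls of the 6 genes held under other pseudocounts, the filter, both scalings and removal of globin and mitochondrial genes. Without the run term 0 of the 6 passed in each comparison, and all genes passing were 13 (CD1), 5 (e11.0), 11 (e11.5) and 0 (stage difference), against 795, 1843, 1455 and 47. Replicates 1 and 2 alone gave 0 of the 6 in CD1 and 0 in the stage difference, with 471, 199, 483 and 18 genes in all. The replicate block gave 0 of the 6 in CD1, 3442 genes at e11.0 and 210 in the stage difference. Without 1 library the 6 genes passed 0 to 2 times in CD1, 0 to 4 at e11.0 (0 without wild type replicate 1, 4 without wild type replicate 2), 1 to 5 at e11.5 (5 without null replicate 1) and 0 to 1 in the stage difference, and all genes 394 to 1191, 116 to 5273, 433 to 2627 and 10 to 2567 (lowest without CD1 hindlimb replicate 1, e11.0 wild type replicate 1, e11.5 null replicate 2 and e11.0 null replicate 2, and highest without CD1 forelimb replicate 1, e11.0 wild type replicate 2, e11.5 null replicate 1 and e11.0 wild type replicate 2). Pseudocounts of 0.1 and 5 gave 31 and 102 genes in the stage difference. By the authors' deposited adjusted p, the genes passing number 1689, 2895 and 2644, and 2 of the 6 genes pass at e11.5. Mesenchyme marker scaling gave 1, 1, 4 and 0 of the 6, and 4829, 2562, 4717 and 4283 genes.

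Sign changes were confined to values that did not pass. Prrx2 in CD1 ranged from -0.0286 (without forelimb replicate 1) to 0.0924 without 1 library, with -0.014 and -0.0073 without hindlimb replicate 1 or 2. Twist1 at e11.0 became 0.014 with trimmed-mean and 0.0436 with median-ratio scaling, 0.0587 with replicates 1 and 2 alone, and 0.0126 in the authors' deposited table. Without 1 library it ranged from -0.1012 to 0.0587, and Osr1 at e11.0 from -0.2521 to 0.0351, each highest without a replicate 3, and Osr1 was 0.0351 with replicates 1 and 2 alone. With mesenchyme marker scaling Prrx2, Twist1 and Osr1 at e11.0 became 0.0379, 0.2255 and 0.1386, Osr1 at e11.5 -0.0064, and the stage differences -0.18 (Prrx1), -0.12 (Shox2), -0.22 (Twist1), -0.145 (Osr1) and -0.0811 (Osr2). The Osr2 stage difference became -0.0521 with a pseudocount of 5. The likeness of Pigu to Osr1 became -0.056 when centred on the table alone. The causes were not tested.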
